A study of Canis lupus familiaris with 8 samples.

Results

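Lesional skin of 3 dogs with depigmenting disease, 2 with Vogt-Koyanagi-Harada syndrome (VKH) and 1 with vitiligo, was compared as 1 group of cases with skin of 5 healthy dogs, and genes that separated every case from every healthy dog were collected. The 3 cases and 5 healthy dogs are all 8 samples of the series. RNA from fixed, archived biopsies had been counted with a NanoString panel designed for 160 canine genes, in which a barcoded probe is counted for each RNA molecule it binds. The 156 genes that the panel does not class as housekeeping were tested. VKH replicate 1 was a male Bernese Mountain Dog of 2.5 years, VKH replicate 2 a male Husky of 2 years and the vitiligo dog a neutered male Labrador cross of 1 year. The healthy dogs were a spayed female Alaskan Malamute (6 years), a neutered male German Shepherd cross (12 years), a spayed female Labrador Retriever (8 years), a neutered male Golden Retriever (11 years) and a spayed female Siberian Husky cross (11 years), and are called healthy 1 to healthy 5 in that order. By the methods the control skin was taken at the margins of leg amputations, whereas lesions were shaved or punched, and in all 3 case histories the nose was among the sites that lost pigment. Age, sampling method and body site therefore cannot be told apart from disease, and the cases were client-owned dogs of different breeds. Sex was unbalanced too, as all 3 cases were male, whereas healthy 1, healthy 3 and healthy 5 were female. The case histories give a treatment only for VKH replicate 1, whose signs resolved with 3 months of steroids. They do not say whether its biopsy was taken before or after that treatment. The stated ages are those of the sample labels, from which the case histories differ for VKH replicate 2 and the vitiligo dog.

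VKH and vitiligo are autoimmune diseases in which T cells attack melanocytes, the pigment cells of the basal epidermis and hair follicle. In human and mouse vitiligo, CD8 T cells release interferon gamma, keratinocytes answer with the chemokines CXCL9, CXCL10 and CXCL11, and these draw further T cells that carry the receptor CXCR3 into the skin. Cytotoxic lymphocytes kill through perforin and granzymes, and regulatory T cells marked by FOXP3 restrain them. In bulk skin a higher count can come from more cells of a type or from more RNA per cell, and these cannot be told apart here.

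KRT1 and KRT10, keratins of the outer epidermis, were high in every dog, with a lowest scaled count of 5931. The panel genes summed to 421915 to 742667 counts in the cases and 209889 to 675018 in the healthy dogs. Background, the mean plus 2 SD of the 8 negative controls, was 16.6 to 27.8 counts. In the cases 133 to 137 genes were over background, and in the healthy dogs 99 to 144. For scaling, the geometric mean of the housekeeping genes B2M, RPL13A, CCZ1 and HPRT was used. Relative to the panel total, B2M, the light chain of MHC class I, was higher in the cases (log2 fold change 1.05, standard error (SE) 0.23, edgeR adjusted p = 0.0047), whereas the other 3 were lower, by -1.07 for HPRT, -1.25 for CCZ1 and -1.52 for RPL13A. The panel total includes B2M and the genes that rose. Scaled by the positive controls, the ratio of case mean to healthy mean was 4.15 for B2M, 0.98 for HPRT, 0.86 for CCZ1 and 0.78 for RPL13A. Every result was therefore also computed with B2M left out of the scaling, which moved the median log2 fold change of the 156 genes from 0.07 to 0.65. A scaled count is a count divided by the dog's housekeeping mean and brought back to the average of the 8 dogs. A gene is called when its edgeR quasi-likelihood p-value, adjusted over 156 genes, is below 0.05, and each log2 fold change below is the cases minus the healthy dogs with its SE.

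In the cases 57 of the 156 genes were called higher, which is 36.5% of the panel, and 22 were called lower, or 14.1%. With B2M left out 67 genes (42.9%) were higher and 9 (5.77%) lower. In 54 genes (34.6%) every case exceeded every healthy dog, and in 17 (10.9%) every case was below every healthy dog. With B2M left out these were 67 (42.9%) and 9 (5.77%). For a single gene the exact permutation test, two-sided, gives p = 0.0357 in such a case, the smallest that 3 dogs against 5 allow. Genes that passed both the test and this separation under both scalings are called shared below. There were 58 shared genes (37.2% of the panel), of which 52 were rises (33.3%) and 6 were falls (3.85%). Leaving out B2M moved log2 fold changes upward in general, so the second scaling could remove falls but hardly rises. All 57 higher calls passed it, against 9 of the 22 lower calls. The split into 52 rises and 6 falls therefore depends in part on this definition.

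The median log2 fold change of the 52 shared rises was 1.98, with a range of 0.93 to 6.38, and 2.56 with B2M left out. All 52 exceeded background in all 3 cases, 26 did so in every healthy dog and 5 in none. With each of the 8 dogs left out in turn 41 of the 52 remained called. Across 7 ways of scaling the counts, 31 of the 52 were called every time, and 20 were also above every healthy dog every time. The other 21 lost their call under at least 1 scaling, and 7 of them (BATF3, BLK, CCL28, CEACAM1, CX3CL1, FAS and TGFB3) were called under 3 or fewer. Against the male healthy dogs alone, which are healthy 2 and healthy 4, 15 of the 52 were not called. With so few controls this fit has less power, so a call lost in it does not separate loss of power from sex. A dependence on sex was not tested. The 20 above every healthy dog were the T cell genes CD3E, CD6, CD8A, CD27 and TRAT1, the cytotoxic genes PRF1, GZMA, GZMB and CTSW, the B lineage genes MS4A1 and TNFRSF17, the regulator FOXP3, the receptor IL21R, the adhesion ligand SELPLG, the chemokines CXCL10, CCL5, CXCL13, CCL19 and PPBP, and the WNT antagonist SFRP2. Of the 6 shared falls only IL6 was called under all 7 scalings.

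**Figure D1:**
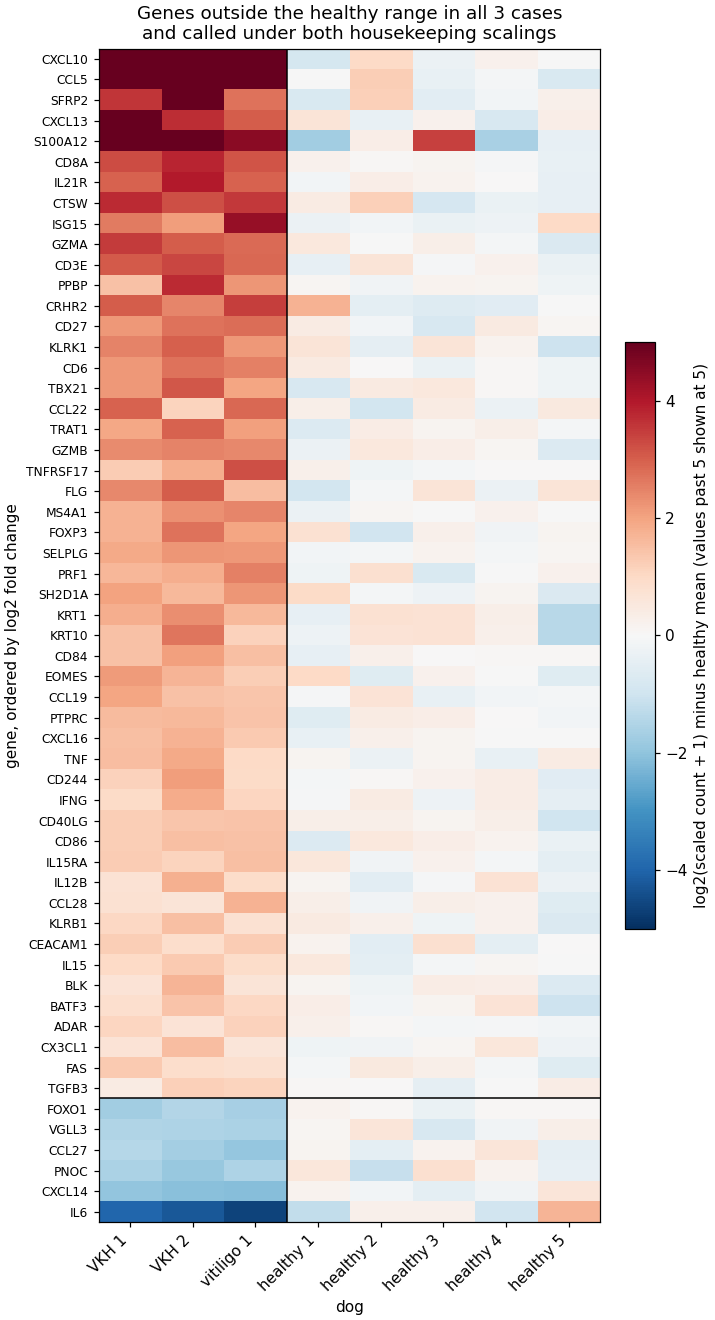
Log2 of the scaled count plus 1, minus the mean of the 5 healthy dogs, for 51 of the 52 shared rises (above the horizontal line) and the 6 shared falls (below it), with 1 column per dog and the cases left of the vertical line. Rows run from the highest log2 fold change (CXCL10, 6.38) to the lowest (IL6, -4.69), and healthy 3 stands out in S100A12.

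The T cell list was shared in full. All 6 of its measured genes (CD3E, CD6, CD8A, CD27, SH2D1A and TRAT1) were shared rises, against 33.3% of the panel. Their median log2 fold change was 2.58, against 0.07 for all genes tested. CD3E, a chain of the T cell receptor complex, had scaled counts of 751 and 910.1 in VKH replicates 1 and 2, 658 in vitiligo and 66.5, 140.1, 85.5, 104 and 71 in healthy 1 to 5. The lowest case was thus far above the highest healthy dog, at a log2 fold change of 3.05 (SE 0.31, adjusted p = 3.25e-05). CD8A, the coreceptor of cytotoxic T cells, had 499.6, 718 and 454 in the cases against 59.4, 52.4, 56.5, 48.9 and 38.9 in the healthy dogs. The healthy dogs were close together and all cases lay above them, with a log2 fold change of 3.44 (SE 0.28, adjusted p = 8.95e-06). CD27, a costimulatory receptor of T and B cells, had 39.8, 59 and 63.2 against 11.3, 7.31, 4.3, 11.4 and 8.75. It was below background in every healthy dog, so its log2 fold change of 2.67 (SE 0.38, adjusted p = 0.000289) is not exact in size. CD6, an adhesion receptor of T cells, rose by 2.49 (SE 0.29), TRAT1, an adaptor of the T cell receptor, by 2.44 (SE 0.38) and SH2D1A, a signalling adaptor of T and NK cells, by 1.90 (SE 0.39). All 6 calls held with each dog left out and under all 7 scalings.

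Of the 10 measured cytotoxic and death receptor genes 8 were called higher, against 36.5% of the panel. Shared rises were 7 of them (PRF1, GZMA, GZMB, CTSW, KLRB1, KLRK1 and FAS), against 33.3% of the panel. The list had a median log2 fold change of 1.78. GZMA, a granzyme, had scaled counts of 161, 118 and 101 in the cases and 19.8, 13.4, 16.7, 12.5 and 7.78 in the healthy dogs. Its log2 fold change was 3.17 (SE 0.35, adjusted p = 5.99e-05), with no overlap. GZMB, the granzyme that activates caspases, had 103, 112 and 105 in the cases, which were almost equal, and 15.6, 28, 24.8, 20.5 and 11.7 in the healthy dogs. The log2 fold change was 2.39 (SE 0.33, adjusted p = 0.000255). CTSW, a cathepsin of cytotoxic lymphocytes, had 302, 212 and 269 against 29.7, 51.2, 11.8, 17.1 and 16.5. All cases were again above all healthy dogs, by 3.39 (SE 0.45, adjusted p = 0.000209). GZMA, GZMB and CTSW each exceeded background in only 1 healthy dog, so the sizes of their log2 fold changes are not exact. PRF1, the pore-forming protein perforin, had 39.2, 43.9 and 71.3 against 9.91, 20.7, 6.46, 11.4 and 13.6 and was below background in all healthy dogs. It rose by 2.06 (SE 0.40, adjusted p = 0.00186). KLRK1, the activating receptor NKG2D, rose by 2.50 (SE 0.42, adjusted p = 0.000737). KLRB1, the NK receptor CD161, was called at 1.13 (adjusted p = 0.0214) but not without VKH replicate 2, at 0.90 (adjusted p = 0.0844), or healthy 3 (adjusted p = 0.0524). FAS, the death receptor, was called at 0.97 (adjusted p = 0.021) but not without VKH replicate 1, at 0.79 (adjusted p = 0.0929). Both calls were also lost when scaled by the library total or by positive controls, when unscaled and with the male healthy dogs alone as controls, where KLRB1 had adjusted p-values of 0.308, 0.0837, 0.0672 and 0.154 and FAS of 0.364, 0.158, 0.147 and 0.148. FASLG, the ligand of FAS, was 1 of the 2 genes in the list that were not called. It had 24.3, 30.1 and 42.5 in the cases and 22.6, 8.53, 17.8, 11.4 and 20.4 in the healthy dogs. The groups did not overlap, yet its log2 fold change of 0.98 (SE 0.39, adjusted p = 0.0526) did not pass, and it passed with B2M left out, at 1.57 (adjusted p = 0.00364), and without VKH replicate 1 or healthy 1 (adjusted p = 0.048 and 0.0455).

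All 3 measured regulators of T cell fate were shared rises, against 33.3% of the panel. TBX21, the T-bet factor of type 1 and cytotoxic T cells, had scaled counts of 108, 205 and 93.1 in the cases and 12.7, 31.7, 33.4, 23.9 and 19.4 in the healthy dogs. No healthy dog came near the cases, and the log2 fold change was 2.46 (SE 0.39, adjusted p = 0.000603). FOXP3, the factor of regulatory T cells, had 29, 57.7 and 34.5 against 14.2, 3.65, 9.68, 6.83 and 8.75, all healthy values being below background. It rose by 2.21 (SE 0.42, adjusted p = 0.00154). EOMES, a T-box factor of effector and memory CD8 T cells and NK cells, had 68.9, 51.5 and 36.8 against 31.1, 9.75, 17.8, 14.8 and 9.72. The vitiligo dog was close to healthy 1, and the log2 fold change was 1.67 (SE 0.42, adjusted p = 0.00806). Of the healthy dogs 1 exceeded background in EOMES. Among the inhibitory and costimulatory receptors CD244, a receptor of NK and CD8 T cells, was a shared rise at 1.46 (SE 0.35, adjusted p = 0.00666). LAG3, a checkpoint receptor, was called at 1.27 (SE 0.48, adjusted p = 0.0469), a call that was lost without VKH replicate 2, the vitiligo dog, healthy 1, healthy 2 or healthy 4, and VKH replicate 1, at 22.3, lay within the healthy range of 4.87 to 25.8. Both EOMES and CD244 missed the threshold with scaling by the library total (adjusted p = 0.115 and 0.0565), and CD244 also against the male healthy dogs alone (adjusted p = 0.0831).

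The 3 measured type 1 cytokines were all shared rises, against 33.3% of the panel, and of smaller size. IFNG, interferon gamma, had scaled counts of 32.4, 61.5 and 35.6 in the cases and 15.6, 21.9, 13.5, 21.6 and 11.7 in the healthy dogs. The cases lay just above the healthy dogs, of which 1 exceeded background, and the log2 fold change was 1.36 (SE 0.36, adjusted p = 0.0108). TNF, a cytokine of macrophages and T cells, had 151, 189.5 and 101 against 55.2, 41.4, 56.5, 38.7 and 67.1. It rose by 1.50 (SE 0.31, adjusted p = 0.00274). IL12B, a subunit of IL12 and IL23, had 54, 112 and 62.1 against 35.4, 21.9, 30.7, 53.5 and 26.2. VKH replicate 1 and healthy 4 were nearly equal, and the log2 fold change was 1.17 (SE 0.38, adjusted p = 0.0237). IL12B was no longer called without VKH replicate 2, at 0.79 (adjusted p = 0.122), or without healthy 2 or healthy 3 (adjusted p = 0.0521 and 0.051). With the library total none of the 3 was called (adjusted p = 0.0871 for IFNG, 0.103 for TNF and 0.343 for IL12B). Against the male healthy dogs alone IFNG had 0.98 (adjusted p = 0.161) and IL12B was not called either (adjusted p = 0.212).

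Of the 4 genes of the IL15 and IL21 system 3 were shared rises, against 33.3% of the panel. IL21R, the IL21 receptor of B, T and NK cells, had scaled counts of 196, 407 and 201 in the cases and 22.6, 31.7, 28.5, 25 and 18.5 in the healthy dogs. There was no overlap, and it rose by 3.40 (SE 0.34, adjusted p = 3.25e-05). IL15, which sustains memory CD8 T cells and NK cells, had 327, 410.5 and 315 against 235, 118, 154, 175 and 160.4 and rose by 1.06 (SE 0.28, adjusted p = 0.0108). IL15RA, the chain that presents IL15, rose by 1.28 (SE 0.31, adjusted p = 0.00714). The fourth gene, IL21, was not called. IL15 and IL15RA were not called with the library total, without scaling or with positive-control scaling, where IL15 had adjusted p-values of 0.456, 0.082 and 0.1.

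The largest shared rises were chemokines that attract activated T cells. CXCL10, an interferon-induced ligand of CXCR3, had scaled counts of 7201, 3496 and 3832 in the cases and 28.3, 106, 43, 61.5 and 52.5 in the healthy dogs. The lowest case was above the highest healthy dog by more than an order of magnitude, and the log2 fold change was 6.38 (SE 0.48, adjusted p = 7.54e-06), a fold of 83.1. CCL5, which attracts T cells and monocytes, had 1911, 3118 and 2228 against 51, 122, 39.3, 47.8 and 30.1. It rose by 5.39 (SE 0.47, adjusted p = 1.22e-05), a fold of 41.8, and both genes were called in every alternative. CXCL11, the other measured CXCR3 ligand, had 38.5, 49 and 31 against 36.8, 12.2, 25.8, 29.6 and 8.75. The groups overlapped, and its log2 fold change of 0.81 (SE 0.45, adjusted p = 0.156) passed only with B2M left out, among the scalings by housekeeping genes, at 1.40 (adjusted p = 0.0197).

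**Figure D2:**
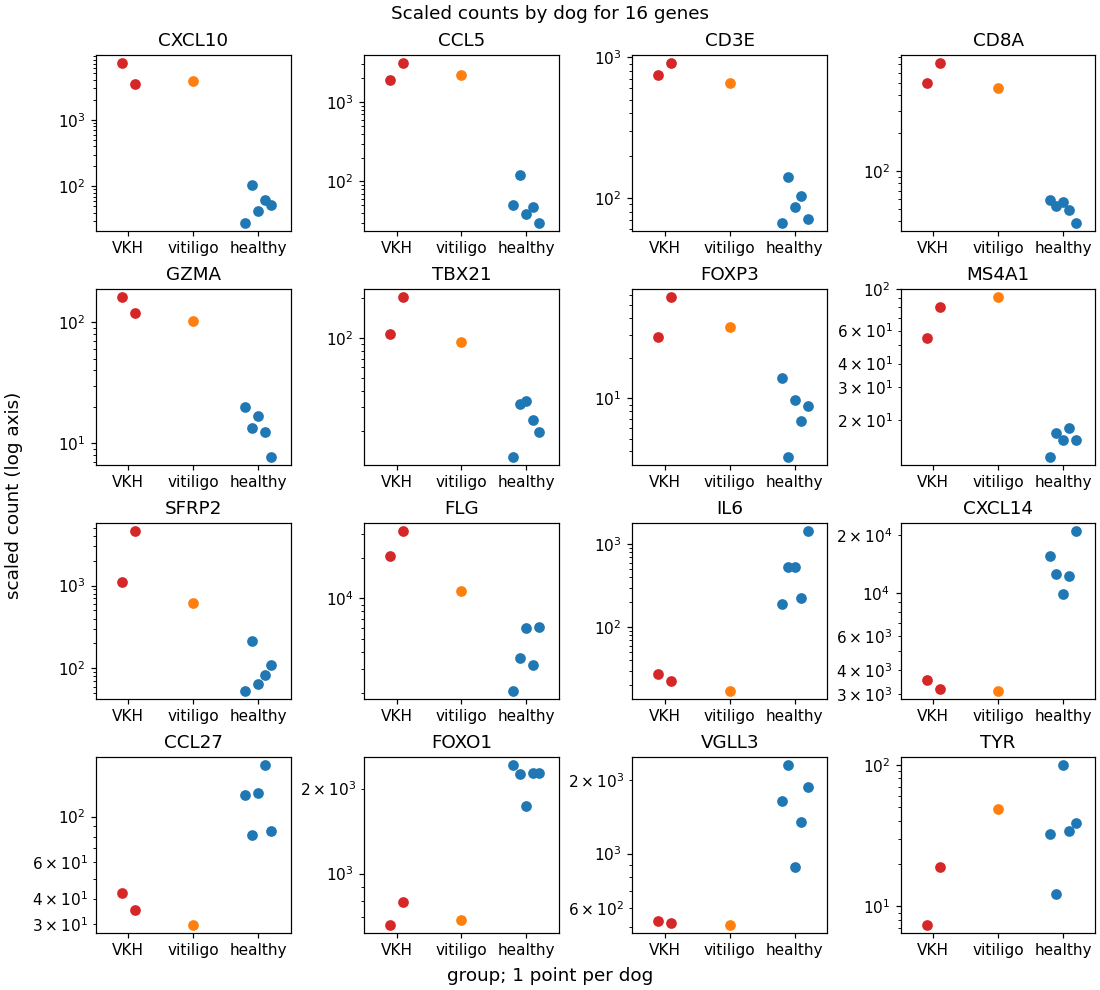
Scaled counts on log axes for 16 genes, with 1 point per dog in the groups VKH (n = 2), vitiligo (n = 1) and healthy (n = 5). In 15 of the 16 panels the cases do not overlap the healthy dogs, and the exception is TYR.

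The skin-homing chemokines moved in both directions. CCL22, a ligand of CCR4, was a shared rise, with scaled counts of 245, 66.5 and 228 in the cases and 38.2, 15.8, 40.9, 25 and 42.8 in the healthy dogs. VKH replicate 2 was the lowest case and still above every healthy dog, at a log2 fold change of 2.46 (SE 0.46, adjusted p = 0.00147). Of the healthy dogs 2 exceeded background in CCL22. CCL28, an epithelial ligand of CCR10, had 33.8, 31.4 and 67.8 against 24.1, 17.1, 24.2, 22.8 and 12.6, with 1 healthy dog over background. It was called at 1.13 (SE 0.37, adjusted p = 0.0268) but not without the vitiligo dog, at 0.69 (adjusted p = 0.143), or without healthy 2 (adjusted p = 0.055) or healthy 5, where it lay just past the threshold. CCL27, the keratinocyte ligand of the same receptor CCR10, was a shared fall, with 42.5, 35.1 and 29.9 in the cases and 127, 81.6, 131, 179 and 85.6 in the healthy dogs. It fell by 1.74 on the log2 scale (SE 0.36, adjusted p = 0.00272), and by 1.16 with B2M left out (adjusted p = 0.0186). CCL17, the other ligand of CCR4, was not shared. It had 23 and 27.6 in VKH and 718 in vitiligo against 32.6, 36.5, 32.8, 38.7 and 33.1, so that the VKH dogs lay below and the vitiligo dog above the healthy dogs. With B2M left out the vitiligo dog was still above, but VKH replicate 2, at 36.9, was above and VKH replicate 1, at 29.2, within the healthy range of 25.2 to 34.6. The pooled log2 fold change of 2.88 (adjusted p = 0.0214) became -0.46 (adjusted p = 0.266) without the vitiligo dog.

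Other tissue chemokines were also divided. CXCL16, a ligand of CXCR6 on resident T cells, had scaled counts of 2259, 2671 and 1986 in the cases and 621, 965, 881, 785 and 801 in the healthy dogs, a shared rise of 1.51 (SE 0.26, adjusted p = 0.000737). CX3CL1, fractalkine, had 248, 448 and 237 against 132, 135, 163, 229 and 128. The vitiligo dog was near healthy 4, and the rise of 0.98 (SE 0.32, adjusted p = 0.0251) was no longer called without VKH replicate 2, at 0.62 (adjusted p = 0.14), or without healthy 2 or healthy 5 (adjusted p = 0.0521 and 0.0517). The CX3CL1 call was also lost with the library total, at 0.23 (adjusted p = 0.492), without scaling, with TMM, median-of-ratios or positive-control scaling (adjusted p = 0.158, 0.0873, 0.0542 and 0.148), and against the male healthy dogs alone (adjusted p = 0.219). CXCL14, a chemokine that healthy epidermis makes steadily, had 3535, 3193 and 3116 against 15476, 12519, 9922, 12276 and 21028. All cases were below all healthy dogs, and it fell by 2.12 on the log2 scale (SE 0.35, adjusted p = 0.000603), and by 1.53 with B2M left out (adjusted p = 0.00274). CXCL12, a stromal chemokine, was called lower at -1.18 (adjusted p = 0.00691) and lost its call with B2M left out, at -0.61 (adjusted p = 0.118), without scaling (adjusted p = 0.0788) and with positive-control scaling (adjusted p = 0.554).

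Of the 8 B cell and lymphoid chemokine genes 6 were shared rises and 1 a shared fall, against 33.3% and 3.85% of the panel. The list had a median log2 fold change of 1.61. CXCL13, which draws B cells into follicles, had scaled counts of 766, 279.9 and 174 in the cases and 32.6, 15.8, 24.2, 11.4 and 26.2 in the healthy dogs. VKH replicate 1 was the highest, and the log2 fold change was 4.20 (SE 0.51, adjusted p = 9.71e-05), with 2 healthy dogs over background. MS4A1, the B cell antigen CD20, had 54.7, 80.3 and 90.8 against 12.7, 17.1, 15.6, 18.2 and 15.6. It rose by 2.23 (SE 0.30, adjusted p = 0.000228). TNFRSF17, the plasma cell receptor BCMA, had 72.9, 105 and 284 against 35.4, 25.6, 27.4, 29.6 and 30.1, the vitiligo dog being the highest. Its log2 fold change was 2.37 (SE 0.42, adjusted p = 0.00104). CCL19, a CCR7 ligand of lymphoid tissue, had 715, 497 and 469 against 174, 288, 137, 162 and 168 and rose by 1.59 (SE 0.31, adjusted p = 0.00166). BLK, a kinase of B cells, rose by 1.04 (SE 0.37, adjusted p = 0.0352). It was not called without VKH replicate 2 (adjusted p = 0.189) or without healthy 2 or healthy 5 (adjusted p = 0.0693 and 0.059).

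Of the 6 measured genes in the list of type I interferons and interferon-induced genes, 2 (ISG15 and ADAR) were shared rises, beside 33.3% of the panel. None of the 4 interferons (IFNA5, IFNA7, IFNB1 and IFNK) was one. In the list 2 genes were called higher and 3 lower, with a median log2 fold change of -1.37. ISG15, a ubiquitin-like protein induced by interferon, had scaled counts of 708, 493 and 2376 in the cases and 96.2, 105, 92, 97.9 and 236 in the healthy dogs. The vitiligo dog was the highest, and the log2 fold change was 3.25 (SE 0.53, adjusted p = 0.000603). ADAR, an RNA-editing enzyme with an interferon-induced form, had 1803, 1373 and 1901 against 1001, 883, 781, 803 and 778 and rose by 1.00 (SE 0.25, adjusted p = 0.00763). ADAR was not called with the library total, at 0.35 (adjusted p = 0.4), without scaling (adjusted p = 0.0931), with positive-control scaling (adjusted p = 0.152) or against the male healthy dogs alone (adjusted p = 0.0533). USP18, which removes ISG15 from proteins, was called at 1.69 (SE 0.51, adjusted p = 0.0178), but VKH replicate 1, at 113, lay below healthy 5, at 117. The vitiligo dog had 525, and without it the log2 fold change was 0.61 (adjusted p = 0.193). IFNB1, interferon beta, was below background in all 3 cases, at 8.1, 8.79 and 17.2 against 42.5, 25.6, 40.4, 22.8 and 29.2. It was called lower at -1.51 (SE 0.41, adjusted p = 0.0113), but not with B2M left out, at -0.94 (adjusted p = 0.0754). IFNA5, of the interferon alpha family, whose near-identical members a probe may not separate, ranged from 2.44 to 214 in the healthy dogs and had 4.05, 6.28 and 5.75 in the cases, all below background. It was called lower (adjusted p = 0.0113), although the groups overlapped. IFNA7, of the same family, was called lower at -1.61 (adjusted p = 0.0465), also with overlap, but not with B2M left out, at -1.02 (adjusted p = 0.184).

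Of the 5 epidermal differentiation genes 3 were shared rises (FLG, KRT1 and KRT10), against 33.3% of the panel. FLG, which encodes profilaggrin, had scaled counts of 20595, 31577 and 11255 in the cases and 2078, 3646, 6038, 3212 and 6153 in the healthy dogs. All cases were higher, by 2.32 (SE 0.44, adjusted p = 0.00154). KRT1, a keratin of suprabasal cells, had 54251, 76449 and 47264 against 11519, 26014, 25266, 18936 and 5931 and rose by 1.76 (SE 0.47, adjusted p = 0.0108). Its partner KRT10 rose by 1.74 (SE 0.53, adjusted p = 0.0194), and without VKH replicate 2 KRT10 had 1.14 (adjusted p = 0.121). LORICRIN and IVL, proteins of the cornified envelope, overlapped between the groups with B2M in the scaling, with log2 fold changes of 0.70 (adjusted p = 0.117) and 0.36 (adjusted p = 0.529). LORICRIN was called with B2M left out, at 1.29 (adjusted p = 0.0141), and all cases were above all healthy dogs. KRT1 and KRT10 were not called against the male healthy dogs alone (adjusted p = 0.0538 and 0.137), and body site cannot be told apart from disease for these genes.

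SFRP2, a secreted WNT antagonist of fibroblasts, was the third largest shared rise. Its scaled counts were 1119, 4597 and 622 in the cases and 53.8, 212, 64.6, 83.1 and 111 in the healthy dogs. VKH replicate 2 was the highest, all cases were above all healthy dogs, and the log2 fold change was 4.33 (SE 0.66, adjusted p = 0.000511). WIF1, another WNT antagonist, had 225, 1695 and 238 against 1549.9, 1834, 2231, 1658 and 974. VKH replicate 1 and the vitiligo dog lay below all healthy dogs and VKH replicate 2 among them, and the gene was not called at -1.20 (SE 0.65, adjusted p = 0.142). Without VKH replicate 2 it was called, at -2.83 (adjusted p = 0.000841). TGFB3 was the only shared rise among the 3 TGF-beta ligands and the smallest of the 52, at 0.93 (adjusted p = 0.0214). It was not called without VKH replicate 2 or without the vitiligo dog (adjusted p = 0.0836 and 0.0663), or against the male healthy dogs alone (adjusted p = 0.0972). Its call was also lost with the library total, at 0.20 (adjusted p = 0.611), and without scaling, with TMM, median-of-ratios or positive-control scaling (adjusted p = 0.121, 0.111, 0.0715 and 0.152).

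Myeloid genes gave a mixed result. S100A12, a calcium-binding protein of neutrophils, had scaled counts of 6032, 4378 and 3052 in the cases and 39.6, 172, 1451, 43.2 and 100.1 in the healthy dogs. Healthy 3 was far above the other healthy dogs but below every case, and the log2 fold change was 3.63 (SE 1.06, adjusted p = 0.0161). PPBP, the platelet chemokine CXCL7, had 115, 567 and 192 against 43.9, 36.5, 46.8, 45.5 and 35 and rose by 2.80 (SE 0.46, adjusted p = 0.000603). CSF3R, the receptor of the neutrophil growth factor G-CSF, went the other way, with 46.6, 45.2 and 52.9 against 97.7, 140.1, 132, 78.5 and 175. It was called lower at -1.37 (SE 0.34, adjusted p = 0.00763), but not with B2M left out, at -0.80 (adjusted p = 0.0819). CXCL8, a neutrophil chemokine, was between 268 and 331 in the cases and split the healthy dogs into 195 and 396 in healthy 1 and 4 and 3500.0 to 4669.7 in the other 3. Its pooled value was -3.02 (SE 0.95, adjusted p = 0.0214), with overlap, and it was not called without either VKH dog or without the vitiligo dog (adjusted p = 0.06, 0.0715 and 0.0663). Of the macrophage markers CD84, a SLAM family receptor of several leukocytes, was a shared rise at 1.69 (SE 0.27, adjusted p = 0.000603), whereas CD163, the haemoglobin scavenger receptor, had -1.16 (adjusted p = 0.052) and passed without healthy 1 (-1.36, adjusted p = 0.0141). The dendritic cell factor BATF3 rose by 1.03 (SE 0.38, adjusted p = 0.0423), a call that was lost without any 1 of the 3 cases or of healthy 2, 3 and 5, and the Langerhans cell lectin CD207 was below background in all 8 dogs.

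Genes outside every list were also shared. PTPRC, the pan-leukocyte antigen CD45, had scaled counts of 1005, 1024 and 901 in the cases and 218, 441, 412, 335 and 298 in the healthy dogs, a rise of 1.52 (SE 0.28, adjusted p = 0.00147). The 3 cases were close together in this gene and in SELPLG, the selectin ligand PSGL-1, which had 460.4, 574 and 549 against 112, 115, 139, 115 and 132 and rose by 2.10 (SE 0.24, adjusted p = 7.09e-05). CRHR2, a receptor of the stress peptides urocortins, had 149.9, 100.4 and 201 against 60.9, 12.2, 10.8, 11.4 and 17.5. Healthy 1 was above the other healthy dogs, which were below background, and the log2 fold change was 2.78 (SE 0.57, adjusted p = 0.00253). CD86, a costimulatory ligand of antigen-presenting cells, rose by 1.34 (SE 0.31, adjusted p = 0.00593). Its call was lost with the library total, at 0.71 (adjusted p = 0.0662), without scaling (adjusted p = 0.0722) and with positive-control scaling (adjusted p = 0.0837).

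The shared falls were IL6, CXCL14, PNOC, CCL27, VGLL3 and FOXO1. IL6, a cytokine of acute inflammation, had scaled counts of 27.7, 22.6 and 17.2 in the cases and 189.7, 530.0, 527, 228 and 1456 in the healthy dogs. All cases lay far below, with the vitiligo dog under background, and it fell by 4.69 on the log2 scale (SE 0.76, adjusted p = 0.000603), a fold of 25.8. FOXO1, a forkhead factor of metabolism and cell cycle exit, had 660.2, 795 and 684 against 2430.3, 2248, 1739, 2278 and 2262. Healthy 3 was the lowest healthy dog and still far above the cases, and the gene fell by 1.62 (SE 0.27, adjusted p = 0.000603), or by 1.04 with B2M left out (adjusted p = 0.00836). VGLL3, a transcription cofactor, had 533, 519.7 and 513 against 1633, 2309, 883, 1341 and 1872. The cases were nearly equal, and the gene fell by 1.62 (SE 0.35, adjusted p = 0.00302), or by 1.05 with B2M left out (adjusted p = 0.0284). PNOC, the precursor of nociceptin and a gene of B cells in NanoString panels, was below background in all cases and in 4 of the 5 healthy dogs, at 2.51 to 3.45 against 4.87 to 21.5. Its fall of 2.08 (SE 0.57, adjusted p = 0.0115) was lost when counts under 20 were set to 20 (-0.20, adjusted p = 0.617). With positive-control scaling only IL6 remained called among the 6.

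Leaving out B2M raised log2 fold changes in general, with the median of the 156 genes moving from 0.07 to 0.65. This shift favours higher calls and disfavours lower ones. With the library total instead, 32 genes were called higher and 50 lower. All 57 higher calls also held with B2M left out, against 9 of the 22 lower calls, which follows the direction of the shift. Among the 13 that were lost were PECAM1, the endothelial antigen CD31, at -1.31 (adjusted p = 0.0115) against -0.77 (adjusted p = 0.129), CYP1B1, an oxidase induced through the aryl hydrocarbon receptor, at -1.32 (adjusted p = 0.0178) against -0.73 (adjusted p = 0.162), and IGFBP5, which binds insulin-like growth factors, at -1.38 (adjusted p = 0.00763) against -0.82 (adjusted p = 0.082). PTGER4, a prostaglandin E2 receptor, was at -1.14 (adjusted p = 0.00844) against -0.56 (adjusted p = 0.155). The monocyte chemokine CCL2, with 1619.5, 731 and 853 in the cases and 1691 to 8032 in the healthy dogs, was at -1.81 (adjusted p = 0.0195) against -1.29 (adjusted p = 0.086). The mast cell protease CPA3, with 121, 144 and 238 against 259 to 470.0, was at -1.08 (adjusted p = 0.0214) against -0.52 (adjusted p = 0.254). Leaving out a dog with B2M kept also ended the calls of PECAM1 (without VKH replicate 2), CYP1B1 (without VKH replicate 1 or the vitiligo dog), CCL2 (without VKH replicate 2 or the vitiligo dog) and CPA3 (without either VKH dog), and that of CCL7, a related monocyte chemokine (without VKH replicate 2, the vitiligo dog, healthy 2, healthy 3 or healthy 5). Under both scalings all 3 cases were below all healthy dogs in IGFBP5, CXCL12 and CSF3R, although none of these 3 passed the test with B2M left out.

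**Figure D3:**
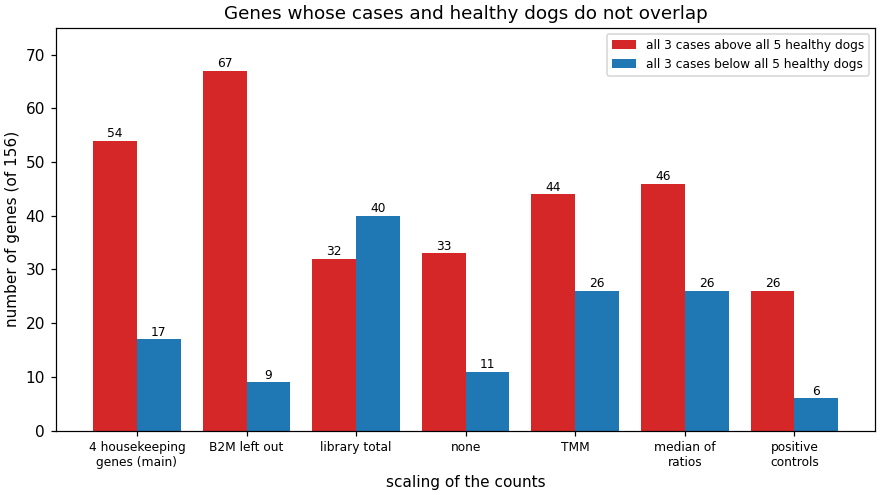
Number of the 156 genes in which the 3 cases all exceeded (red) or were all below (blue) the 5 healthy dogs, for 7 ways of scaling the counts. The count above ranges from 26 to 67 and the count below from 6 to 40, and the count below exceeds the count above only with the library total.

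Several programmes were not shared. None of the 4 melanocyte genes was called with or without B2M in the scaling, although KIT was lower with the library total (-0.95, adjusted p = 0.0272). TYR, tyrosinase, which makes the first step of melanin synthesis, had scaled counts of 7.43, 18.8 and 48.3 in the cases and 32.6, 12.2, 100.1, 34.1 and 38.9 in the healthy dogs, and it exceeded background in 1 case and 3 healthy dogs. DCT, which acts later in the same pathway, had 83.7, 229.7 and 368 against 67.9, 45.1, 538, 206 and 72.9. The cases overlapped the healthy dogs in both genes and in KIT and MC1R, receptors of melanocyte growth and pigment switching, and the 4 log2 fold changes lay between -0.86 and 0.27. The list of type 2 cytokines (IL4, IL9, IL13 and TSLP) and that of hair follicle and nuclear receptor signalling (EDA, EDAR, RXRG and VDR) each had 0 of 4 genes called in edgeR under both scalings. In EDA all 3 cases, at 55.4, 84.1 and 88.5, were nevertheless below all healthy dogs, at 97.5 to 177. With B2M left out the groups overlapped in EDA. At an unadjusted p below 0.05 there were 0 melanocyte genes, 1 type 2 cytokine and 0 hair follicle genes, and DESeq2 called 0, 1 and 0 of them. Of the 10 monocyte and eosinophil CC chemokines none was called higher and 2 were lower (CCL2 and CCL7) with B2M in the scaling, and neither held with B2M left out. CCL26, an eosinophil chemokine, had 0.78 (adjusted p = 0.146), and with B2M left out it was called higher at 1.37 (adjusted p = 0.0197), with all cases above all healthy dogs.

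**Figure D4:**
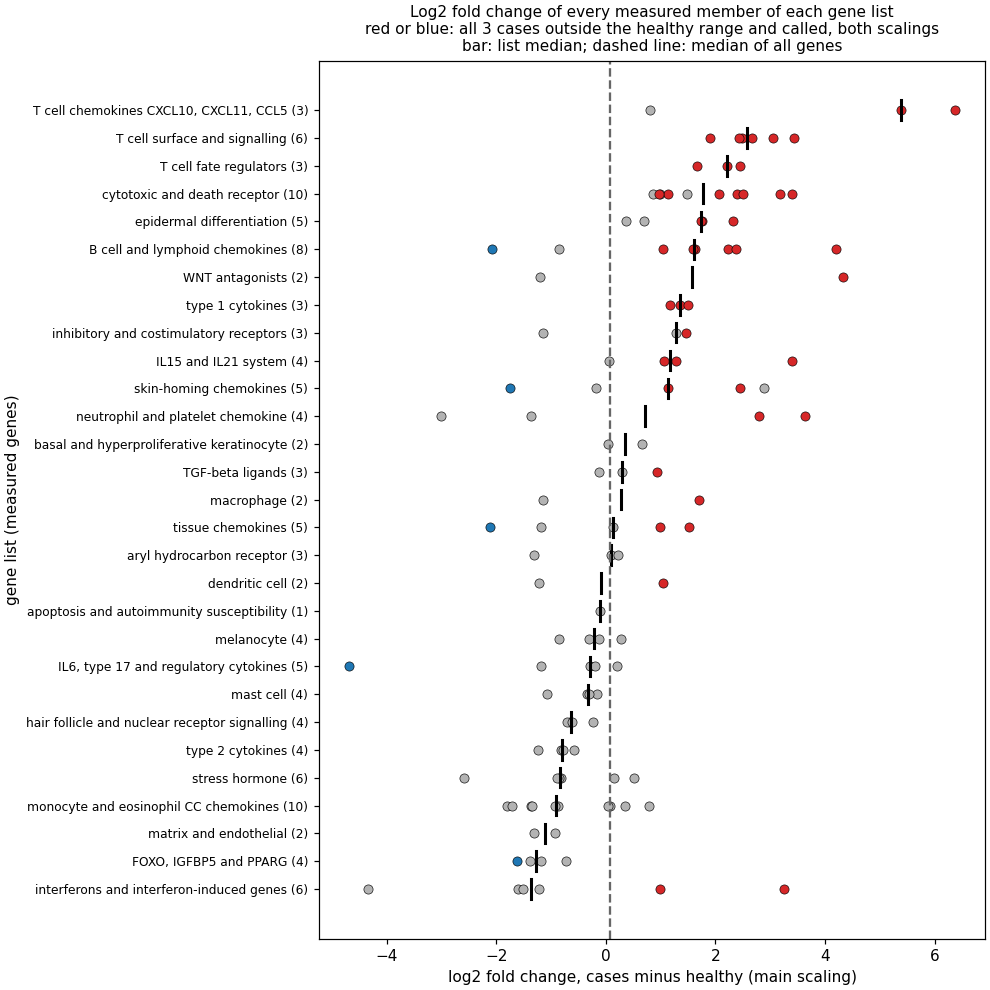
Log2 fold change, cases minus healthy dogs, of each measured gene (point) in 29 gene lists, with the number measured in brackets, a bar at the list's median and a dashed line at the median of all 156 genes (0.07). Red and blue points are shared rises and shared falls, and every point is red in the T cell surface, T cell fate and type 1 cytokine lists.

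The cases were compared with each other as well. In 1 of the 156 genes (0.641%) VKH and vitiligo differed in edgeR, with 6 genes (3.85%) at an unadjusted p below 0.05, 4 (2.56%) with DESeq2 and 1 with limma. That gene was CCL17, lower in VKH than in vitiligo by a log2 difference of -4.83 (adjusted p = 9.69e-05). With 1 vitiligo dog, assumed to vary like the others, a p above the threshold does not show that the diseases were alike. Above every healthy dog, 9 genes were found in VKH replicate 2 alone, 8 in the vitiligo dog alone, none in VKH replicate 1 alone and 54 in all 3 cases. Without B2M in the scaling these were 11, 11, 0 and 67. Below every healthy dog, 16 genes were found in VKH replicate 1 alone, 8 in VKH replicate 2 alone, none in the vitiligo dog alone and 12 in both VKH dogs. With B2M left out these 4 numbers were 13, 3, 2 and 5. ADRB1, the beta-1 adrenergic receptor, was one of the latter, with scaled counts of 7.43 and 7.53 in VKH, 27.6 in vitiligo and 26.9 to 166 in healthy skin. Among the 52 shared rises VKH replicate 2 was the highest case in 31, the vitiligo dog in 12 and VKH replicate 1 in 9, but with the library total these numbers were 12, 21 and 19, so the order of the cases depended on the scaling.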

How the data were processed

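The authors deposited 1 table of raw counts per probe for 8 skin biopsies, read on a NanoString Sprint instrument without alignment to a genome, with 6 positive and 8 negative control probes kept, and the paper's methods name nSolver. Each biopsy came from a separate dog, and groups were taken from the sample titles. Probe names were matched to gene symbols through 72 RefSeq accessions and 76 symbols (RefSeq gene table, assembly UU_Cfam_GSD_1.0, names only), 6 came from the paper or a spelling variant and 6 keep their deposited name. CCZ1 was assigned by elimination among the 4 housekeeping probes.

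The main test was the quasi-likelihood test of edgeR 4.0.16 with its legacy fit, under R 4.3.3, with the housekeeping geometric mean as library size, no filter on low counts, and Benjamini-Hochberg adjustment over 156 genes at 0.05. Cases against healthy was 1 fit of 2 groups, and VKH against vitiligo a fit of 3 groups. The standard error is the log2 fold change divided by the square root of F. For the housekeeping genes the panel total served as library size. The table holds counts for 160 panel genes, and the total per dog sets the precision of low counts.

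The alternatives were housekeeping scaling without B2M, library-total, no, TMM, median-of-ratios and positive-control scaling, removal of genes without 20 counts in 2 or more dogs (10 genes), counts under 20 set to 20 (233 counts), the newer edgeR default, DESeq2 1.42.0, limma 3.58.1 on log2(scaled count + 1), male healthy dogs only, VKH dogs only, each dog left out, and the replicate number as a block. Scaling without B2M with each dog left out was added after seeing the data. The procedure was tested on simulated data. The members and gene lists were chosen with earlier results of these data known. Of 29 lists, each gave up to 4 called genes with the largest change, and the 12 largest shared rises and falls, genes named by the paper and called genes with the widest range among the cases were added. Of 96 genes that met this rule those with the clearest bearing on a list are described, and 15 others (CCL19, BLK, SH2D1A, TRAT1, ADAR, MC1R, CRHR2, PTPRC, SELPLG, CD86, FAS, KLRB1, CCL26, CEACAM1 and MC2R) were chosen after their values were seen. Immunohistochemistry was not analysed here, and some measured genes are not reported here.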

Additional observations from a re-analysis of the deposited data

Results flagged for a closer look

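In 3 genes of the 86 checked, 1 healthy dog lay far from the other 4, and chance alone gives about 1 in 20 such groups. ISG15 had a scaled count of 236 in healthy 5 against 92 to 105 in the others, FOXO1 had 1739 in healthy 3 against 2248 to 2430.3, and CRHR2 had 60.9 in healthy 1 against 10.8 to 17.5. In ISG15 and CRHR2 the distant dog was the nearest to the cases, and in FOXO1 too, and in all 3 genes the cases still lay outside the healthy range.

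CCL17 differed between the diseases in a direct test, with VKH minus vitiligo at a log2 difference of -4.83 (edgeR adjusted p = 9.69e-05). Both VKH dogs were below all 5 healthy dogs and the vitiligo dog was above them. With B2M left out of the scaling the vitiligo dog was still above them, whereas VKH replicate 2 was above and VKH replicate 1 within the healthy range. The vitiligo value rests on 1 dog.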

How the results depend on the processing

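Higher calls numbered 57, and 32 with the library total and 28 with the replicate block. Lower calls numbered 22. They were 50 under library-total scaling, 38 under TMM or median of ratios, 11 when unscaled, 9 with B2M left out, 9 with the replicate block and 4 under positive-control scaling. With each dog left out they ranged from 46 to 58 higher and 16 to 23 lower. With B2M also left out they ranged from 61 to 70 higher, and lower calls were 4, 5 and 6 without VKH replicate 1, VKH replicate 2 and the vitiligo dog and 9, 8, 7, 8 and 7 without healthy 1 to 5. Against the male healthy dogs 38 were higher and 18 lower. Every case exceeded every healthy dog in 54 genes (library total 32, unscaled 33, positive controls 26, with a dog left out 54 to 59). Every case was below every healthy dog in 17 (B2M out 9, library total 40, unscaled 11, TMM or median of ratios 26, positive controls 6, male dogs 32, with a dog left out 18 to 29, the highest without the vitiligo dog). Leaving out dogs can only keep or raise both of these counts, so the values with fewer dogs do not test them. VKH and vitiligo differed in 1 gene, 2 under library-total scaling, 4 by DESeq2 and 0 under positive-control scaling. The cause of these shifts was not tested.

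Some named genes changed sign, none of them called after the change. CCL17 was at -0.46 with only the VKH dogs and ranged from -0.46 to 3.42 with a dog left out. DCT was at -0.36 with the library total and when unscaled, -0.16 with TMM, -0.027 with median of ratios, -0.29 with positive controls and -0.26 with only the VKH dogs, and ranged from -0.26 to 1.21 with a dog left out. MC1R was at 0.46 with B2M left out, 0.012 with limma, 0.43 against the male dogs and 0.40 with the replicate block, and ranged from -0.32 to 0.14 with a dog left out. TYR was at 0.068 against the male dogs and 0.076 with the replicate block, KIT at 0.26 with B2M left out and 0.091 with positive controls, and with the library total IVL was at -0.40, LORICRIN at -0.066, KRT14 at -0.048 and MC2R at -0.22.

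Replicate numbers that VKH or vitiligo dogs share with healthy dogs did not pair them: the correlations of deviations from the group means were -0.155, 0.136 and -0.054. Over all genes the median log2 fold change moved to -0.61 (library total), -0.25 (TMM), -0.17 (median of ratios) and 0.43 (positive controls), so changes are relative to the scaling. Of the 52 shared rises 26 were over background in every healthy dog. For the others the size of the log2 fold change is not exact, and an effect of depth was not tested.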

Other observations

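Other gene lists of the panel are given here by their counts, beside 36.5% of the 156 genes called higher and 14.1% called lower. Of 6 stress hormone genes, which include the receptors ADRB1 and CRHR1 and the precursor POMC, 1 was called lower (ADRB1) and 5 were not called, with a median log2 fold change of -0.84. With B2M left out MC2R was called higher at 1.09 (edgeR adjusted p = 0.036), and the median was -0.25. The related receptor CRHR2 is not in this list and was a shared rise at 2.78 (edgeR adjusted p = 0.00253). Both basal and hyperproliferative keratins, KRT5 and KRT14, were not called, with a median of 0.34, and with B2M left out KRT14 was called higher at 1.25 (edgeR adjusted p = 0.0174), with a median of 0.93. Of the 5 genes in the list of IL6, type 17 and regulatory cytokines IL6 was called lower, and IL17A, IL1B, CCL20 and IL10 were not called. Of 3 aryl hydrocarbon receptor genes 1 was called lower (CYP1B1), with a median of 0.09, and of 4 mast cell genes 1 (CPA3), with a median of -0.33. Over the 156 genes the median was 0.07.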
